A study of Homo sapiens with 6 samples.

Results

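The COPII coat is the protein cage that buds transport vesicles from the endoplasmic reticulum (ER). Its 10 subunit genes examined here, SAR1A, SAR1B, SEC23A, SEC23B, SEC24A, SEC24B, SEC24C, SEC24D, SEC13 and SEC31A, were taken from 22375 genes measured on expression arrays of PC3-ML cells. They were listed by name, and several of them were chosen by their higher values on the drug-treated arrays of the comparison described here. Each gene was represented by the array feature (transcript cluster) that named it and no other gene, and each of the 10 had 1 such cluster. No minimum level was set, so all 10 entered the comparison.

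PC3-ML is a subline of PC-3, an established line from a human prostate cancer metastasis, that was selected for its metastatic growth. All cells were parental PC3-ML grown in DMEM with serum. Of the 6 samples, 3 received the vehicle DMSO alone and 3 received DMSO with 500 nM PD 0332991, and the treatment lasted 24 h. PD 0332991 (palbociclib) inhibits the kinases CDK4 and CDK6 and so keeps the retinoblastoma protein in its active form, and the series is titled for the re-activation of that protein. Nothing in the labels states that samples of 1 group were separate cultures. The p-values below set each group difference against the spread within the groups, and that spread may be technical.

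COPII assembly starts when the small GTPase SAR1 is loaded with GTP by the ER membrane protein PREB and inserts into the ER membrane. SAR1 recruits the inner coat, in which SEC23 stimulates GTP hydrolysis by SAR1 and SEC24 binds the cargo, and the inner coat recruits the outer cage of SEC13 and SEC31. Vertebrates carry paralogs of most subunits, and inherited defects of single paralogs affect different tissues: SAR1B in intestinal chylomicron export, SEC23A and SEC24D in the skeleton, and SEC23B in red cell formation.

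The arrays had medians over all genes tested between 5.33 and 5.37 on the log2 scale. Of the genes fixed as markers of PC-3 cells, KRT8, KRT18, KRT19 and VIM lay at the 95.1, 94.3, 97.1 and 97.0 percentiles of all genes by mean level, and EPCAM at 65.7. With the drug KRT8 (0.31, limma adjusted p = 0.0449) and KRT19 (0.41, 0.00612) were higher and VIM (-0.24, 0.0250) was lower on the log2 scale, and their part in the results below was not tested. The prostate luminal genes KLK3 and KLK2, low in PC-3, lay at 33.8 and 3.78. The leukocyte, endothelial and fibroblast markers PTPRC, CD14, CD3E, PECAM1, CDH5 and PDGFRB lay between 13.8 and 36.5, and 0 of these 6 passed the threshold given below. The arrays number 3 per group, which limits the precision of every value.

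The upstream regions of several subunits hold the hexamer GACGTG, the core of elements that XBP1, ATF6 and CREB3-family transcription factors are known to bind in genes of the secretory pathway. RefSeq windows (GRCh38.p14) from 250 bases before to 50 bases after the first-listed transcript start were searched on both strands. They were present for 9 of the 10 genes, all but SEC24D. GACGTG or its reverse complement CACGTC was found in 6 of the 9 windows, against 7.89% of 27305 promoter windows in the same table and 12.3% of the 3943 windows of genes with a DMSO mean at or above the lowest of the 10. The stretches of 30 bases around each match are shown because they let the paralogs be compared; capitals mark the hexamer, and every stretch is written 5′ to 3′ on the gene's own strand. In SEC23A and SEC31A the match spans the transcript start, and in SEC13 the second match lies after it. The SEC24A match precedes the first-listed start but lies inside the annotated gene, which begins at chr5:134648382.
SEC23A (chr14:39103221-39103250, minus strand): tcccctcctcttGACGTGgcagaggcggcg
SEC24A (chr5:134648595-134648624, plus strand): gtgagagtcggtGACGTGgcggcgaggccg
SEC24C (chr10:73744287-73744316, plus strand): ccccgaaatgcaGACGTGgcagaagaagtg
SEC31A (chr4:82900557-82900586, minus strand): cctgagcctgaaGACGTGcatttgaccgct
SAR1A (chr10:70170696-70170725, minus strand): ttccggcgctgcCACGTCtcgcgcggtcag
SEC13, first match (chr3:10321238-10321267, minus strand): cctctggtctcgCACGTCactggaggatag
SEC13, second match (chr3:10321070-10321099, minus strand): gccgggagctgcCACGTCcgagacctggag

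The shorter motif CCACG, also read on both strands and overlapping GACGTG wherever the latter is followed by another G, was in 8 of the 9 windows, against 37.9% of all windows and 50.2% of those at the same level. The full ER stress element, CCAAT and CCACG spaced by 9 bases, was in 0 of the 9 and in 22 of the 27305. The windows of SEC23B, SEC24B and SAR1B had no GACGTG, and that of SEC23B had no CCACG either. The bases upstream of the first-listed starts of SEC23B and SEC24B are shown as examples without the hexamer, for a gene with one of the larger differences and the gene with the smallest; capitals mark CCACG read on either strand. A match or its absence describes these letters and no more.
SEC23B (chr20:18507298-18507547, plus strand): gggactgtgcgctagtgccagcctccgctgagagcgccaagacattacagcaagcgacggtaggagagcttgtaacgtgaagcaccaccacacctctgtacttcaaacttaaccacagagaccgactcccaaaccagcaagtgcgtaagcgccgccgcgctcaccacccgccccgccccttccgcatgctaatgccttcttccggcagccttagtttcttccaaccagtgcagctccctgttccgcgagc
SEC24B (chr4:109433565-109433814, plus strand): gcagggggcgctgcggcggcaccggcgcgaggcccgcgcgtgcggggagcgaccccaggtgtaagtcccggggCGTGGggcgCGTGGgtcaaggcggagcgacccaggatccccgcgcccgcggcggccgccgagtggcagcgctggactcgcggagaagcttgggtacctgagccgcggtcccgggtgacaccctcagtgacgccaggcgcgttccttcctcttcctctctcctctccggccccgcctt

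With PD 0332991 all 10 subunits had higher values than with DMSO, and for all 10 the lowest drug-treated array lay above the highest DMSO array. Differences ran from 0.12 (SEC24B) to 0.59 (SEC31A) on the log2 scale, or 1.09-fold to 1.51-fold, with a median of 0.41 against 0.02 over all genes tested. In bulk RNA, a change in the share of cells that express a gene and a change in its RNA per cell cannot be told apart. By limma with Benjamini-Hochberg adjustment over all 22375 genes, 7 of the 10 were past an adjusted p of 0.05 in the direction of higher values, where 5.57% of all genes were. Of the 5143 genes with a DMSO mean at or above the lowest of the 10, 12.1% were past it in that direction. Higher values without overlap between the groups occurred in 17.2% of all genes. Because members were chosen with this comparison known, these counts describe the subunits and nothing is read from them.

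**Figure D1:**
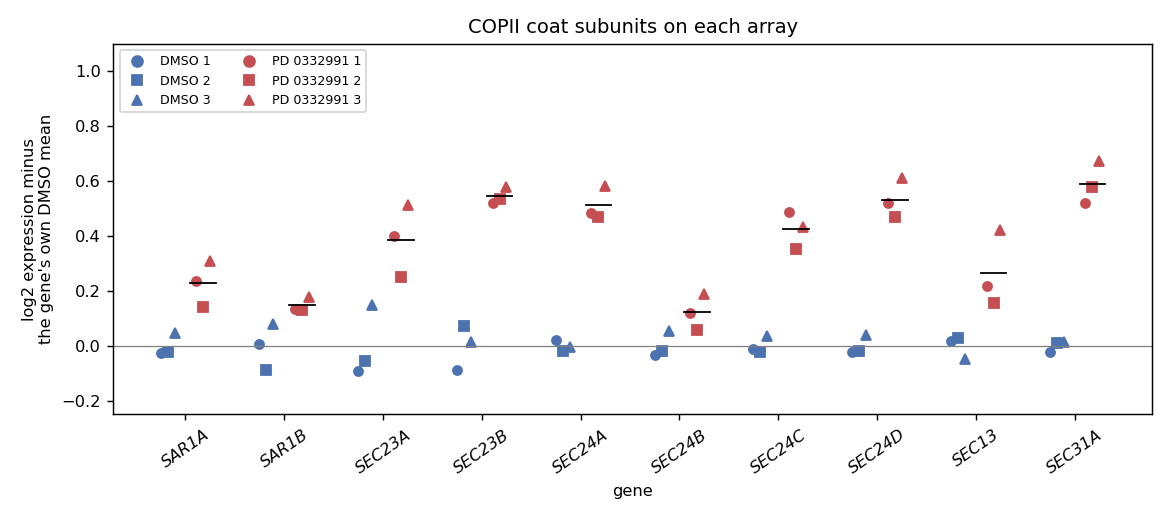
Log2 expression of each COPII subunit gene on each array, minus that gene's own mean over the 3 DMSO arrays (y axis), for 10 genes (x axis). Blue points are DMSO arrays, red points PD 0332991 arrays, marker shape gives the replicate number and black lines are the drug group's means. The red points of every gene lie above its blue points, and the gap is narrow for SEC24B and SAR1B.

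The SAR1 GTPases had some of the smaller differences. SAR1A read 13.54, 13.55 and 13.61 on the DMSO arrays and 13.80, 13.71 and 13.87 on the PD 0332991 arrays (log2 expression). The difference was 0.23 ± 0.055 (log2, moderated SE, n = 3 per group), 1.17-fold, and SAR1A was among the 7 past the threshold. SAR1B read 10.69, 10.59 and 10.76 with DMSO and 10.81, 10.81 and 10.86 with the drug. The groups of SAR1B were 0.05 apart at their nearest arrays, and its difference of 0.15 ± 0.054 (1.11-fold) was not past the threshold. The change of SAR1A minus that of SAR1B was 0.08 (95% interval -0.06 to 0.22), so these arrays do not separate the paralogs.

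Both SEC23 genes, which encode the subunit that activates SAR1's GTPase, were past the threshold. SEC23B read 11.09, 11.24 and 11.19 with DMSO and 11.69, 11.71 and 11.75 with PD 0332991. Its drug-treated arrays lay within 0.06 of each other, and it was 1.46-fold higher (log2 difference 0.54 ± 0.053). SEC23A read 12.40, 12.43 and 12.64 with DMSO and 12.89, 12.74 and 13.00 with the drug, a difference of 0.39 ± 0.090 (1.31-fold). The third DMSO array was the high one of its group, and its gap to the lowest drug-treated array was 0.10. SEC23A had the largest SE of the 10 genes. The change of SEC23A minus that of SEC23B was -0.16 (95% interval -0.44 to 0.12), and on that scale the groups overlapped.

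The SEC24 genes, which encode the cargo-binding adaptors, comprised 3 with larger differences and 1 with a small one. SEC24D read 8.08, 8.08 and 8.14 with DMSO and 8.62, 8.57 and 8.71 with PD 0332991, 1.45-fold higher (log2 difference 0.53 ± 0.051). SEC24A read 9.81, 9.77 and 9.79 with DMSO and 10.27, 10.26 and 10.37 with the drug, 1.43-fold higher (0.51 ± 0.047). SEC24C read 13.01, 13.00 and 13.06 with DMSO and 13.51, 13.37 and 13.46 with the drug, 1.34-fold higher (0.43 ± 0.050). In each of these 3 genes the groups stood at least 0.32 apart at their nearest arrays, and all 3 were past the threshold. SEC24B read 9.84, 9.85 and 9.93 with DMSO and 9.99, 9.93 and 10.06 with the drug. Its groups were separated by 0.0036 at their nearest arrays, and the difference of 0.12 ± 0.051 (1.09-fold) was not past the threshold.

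Set against each other on the same arrays, SEC24B stood further in its change from its 3 paralogs than these did from each other. The change of SEC24D exceeded that of SEC24B by 0.41 (95% interval 0.38 to 0.44), that of SEC24A by 0.39 (0.29 to 0.49) and that of SEC24C by 0.30 (0.20 to 0.41). In each of these pairs the within-array differences of the 3 drug-treated arrays lay above those of the 3 DMSO arrays. By sequence SEC24A and SEC24B are known as one pair of close relatives and SEC24C and SEC24D as another. The change of SEC24A, though not its level, was thus nearer to that of SEC24D than to that of its own close relative. SEC24D minus SEC24A was 0.02 (-0.05 to 0.10), SEC24C minus SEC24A was -0.09 (-0.23 to 0.06) and SEC24C minus SEC24D was -0.11 (-0.23 to 0.01). Of these 3 pairs, SEC24C minus SEC24D also had no overlap between the groups, with within-array differences of 4.92 to 4.93 on the DMSO arrays and 4.74 to 4.89 on the drug-treated arrays. These intervals come from the same comparison that chose the genes, are not adjusted for the 9 pairs examined, and describe the arrays.

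**Figure D2:**
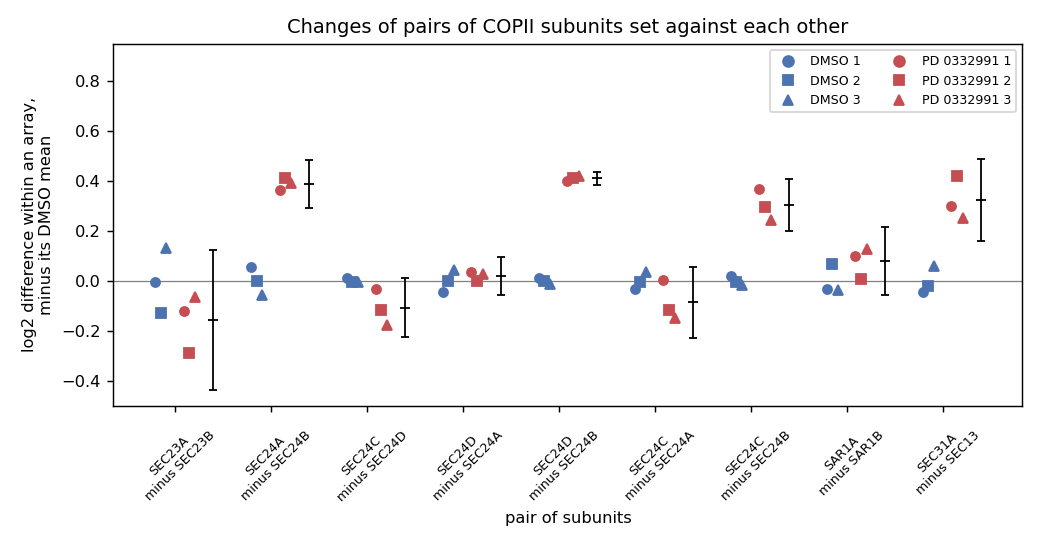
Difference in log2 expression between the subunits of a pair within each array, minus the mean of that difference over the DMSO arrays (y axis), for 9 pairs (x axis). Blue points are DMSO arrays, red points PD 0332991 arrays, marker shape gives the replicate number and black bars are the difference of changes with its 95% interval. The 3 pairs that subtract SEC24B lie between 0.30 and 0.41, and the pairs among SEC24A, SEC24C and SEC24D lie between -0.11 and 0.02.

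Of the outer cage genes, SEC31A had the largest difference of the 10 subunits and SEC13 a smaller one. SEC31A, which forms the rods of the cage, read 10.80, 10.83 and 10.84 with DMSO and 11.34, 11.40 and 11.50 with PD 0332991. It was 1.51-fold higher (0.59 ± 0.052), with the DMSO arrays within 0.04 of each other. SEC13, its partner at the vertices of the cage, read 8.30, 8.31 and 8.24 with DMSO and 8.50, 8.44 and 8.71 with the drug. The third drug-treated array of SEC13 stood 0.21 above the next, and the difference of 0.27 ± 0.074 (1.20-fold) was not past the threshold. The change of SEC31A minus that of SEC13 was 0.32 (95% interval 0.16 to 0.49).

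**Figure D3:**
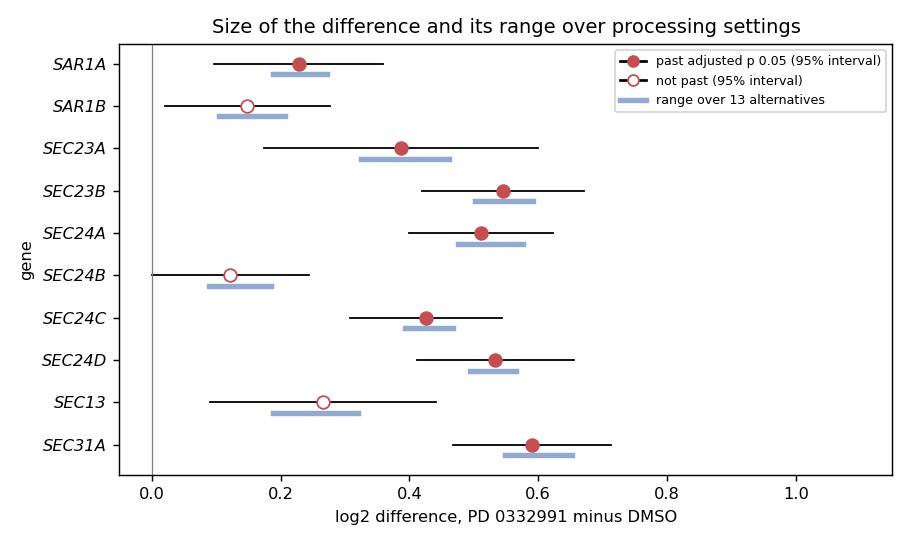
Log2 difference, PD 0332991 minus DMSO (x axis), for each COPII subunit gene (y axis), n = 3 arrays per group. Circles are the main values with 95% intervals as black lines, filled where the adjusted p was under 0.05, and blue bars span the values under 13 alternative settings. SEC31A, SEC23B, SEC24D, SEC24A and SEC24C have the largest values and SEC24B the smallest, and no blue bar reaches 0.

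How firmly single members passed differed. SEC23B, SEC24A, SEC24C, SEC24D and SEC31A passed in all 13 alternative settings, whereas SEC23A passed in 7 and SAR1A in 5. SEC23A did not pass without DMSO replicate 1, DMSO replicate 2, PD 0332991 replicate 1 or PD 0332991 replicate 3, and SAR1A passed with 1 array left out only where that was PD 0332991 replicate 2. Of the genes not past the threshold, SEC13 passed in 2 settings and SAR1B and SEC24B in 1 each, and quantile normalization put all 10 past it.

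The subunits also shared a pattern within the groups. The third PD 0332991 array was the highest of its group for 9 of the 10 genes and the second was the lowest for 8, against 36.8% and 36.0% of all genes tested. The third DMSO array was the highest of its group for 7 of the 10, against 34.4% of all genes. Outside the coat, the third PD 0332991 array was also the highest for COPA, COPB1, COPB2, COPG1, COPG2 and ARCN1 of 9 COPI genes. It was the highest for every nuclear pore Y-complex gene described below except SEH1L, though most of those genes were lower with the drug. The cause of this pattern was not tested. Averaged over the 10 genes, each centred on its own mean over the 6 arrays, the DMSO arrays stood at -0.21, -0.20 and -0.15 and the PD 0332991 arrays at 0.18, 0.13 and 0.26. The gap between the groups was wider than the spread within either. Members were chosen with this comparison known, which favours such a gap, so nothing is read from it. Without the third PD 0332991 array the median difference of the 10 genes was 0.37, and 5 were past the threshold.

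SAR1B and SEC24A are neighbours on chromosome 5 (GRCh38.p14), with 15553 bases between their RefSeq annotations and transcribed away from each other, and had differences of 0.15 and 0.51. SAR1A and SEC24C lie on chromosome 10, SEC31A, SEC24B and SEC24D on chromosome 4, SEC13 on 3, SEC23A on 14 and SEC23B on 20.

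Factors that help to assemble the coat were called about as often as genes in general. Of 12 genes for COPII assembly and regulation, 10 were measured, 1 rose, 1 fell and 8 did not pass, with a median difference of 0.06. Over all genes 5.57% were higher and 5.74% lower. Among genes at or above the lowest coat subunit's level 12.1% were higher, so 1 of 10 each way is near the background. That level was a DMSO mean of 8.10 (SEC24D). Some genes of this list and of those below lay under it, so the 12.1% is not matched to these lists. Whether the list differs from the coat subunits was not tested. SEC31B and PDCD6 were not analysed here. MIA3 (TANGO1), which loads bulky cargo such as collagen at ER exit sites, went from 9.65 to 10.12 (log2 group means, n = 3), a rise of 0.47 ± 0.059 (limma adjusted p = 0.0032). PEF1, a calcium sensor that acts with the ubiquitin ligase that modifies SEC31, fell by 0.17 (limma adjusted p = 0.040), a call lost whichever single array was left out (0.0799 to 0.118), with the replicate block (0.109) and with all clusters in 1 fit (0.226). PREB, the exchange factor of SAR1, had a difference of 0.18 (limma adjusted p = 0.0798) and MIA2, a relative of MIA3, one of 0.15 (limma adjusted p = 0.0617). Differences of the ER exit site scaffolds were 0.02 for SEC16A, 0.10 for SEC16B and -0.03 for TFG, and those of the phospholipase-like SEC23IP, the ubiquitin ligase adaptor KLHL12 and its cullin CUL3 were 0.17, -0.0047 and -0.07. None of these 6 passed in the main comparison. SEC16A, TFG and KLHL12 changed sign under some settings, and SEC23IP passed with quantile normalization (limma adjusted p = 0.0313) and with the level filter (0.0423).

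Receptors that link cargo to the coat were mixed. Of 13 measured, 2 rose, 1 fell and 10 did not pass, with a median of 0.09; the shares over all genes were 5.57% and 5.74%, and 12.1% rose among genes at or above the lowest coat subunit's level, so 2 of 13 is near that background. TMED10, a p24 family receptor, rose by 0.39 ± 0.043 (limma adjusted p = 0.0020) and SURF4, a receptor for soluble secreted proteins, by 0.19 (limma adjusted p = 0.0396). ERGIC2, of the ER-Golgi intermediate compartment, fell by 0.28 (limma adjusted p = 0.0419). The calls of SURF4 and ERGIC2 were each lost in 5 of the 6 fits without 1 array (adjusted p up to 0.125 and 0.131), with the replicate block (0.0898 and 0.110) and with all clusters in 1 fit (0.211 and 0.172). MCFD2, which acts with LMAN1 in the export of clotting factors, had a difference of 0.13 (limma adjusted p = 0.0793).

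Genes for the tethering and fusion of COPII vesicles were past the threshold in 7 of 16 measured, each time as a rise, with a median of 0.15. Of all genes 5.57% rose, and of those at or above the lowest coat subunit's level 12.1% did. Some of the 7 lay below that level with DMSO, such as GOLGA2 at 7.69. USO1 and SEC22B were not analysed here. The members with the smallest p were the SNARE GOSR2 (0.27, limma adjusted p = 0.0051), the GTPase RAB1A (0.34, 0.0077), the Golgi tether GOLGA2 (0.24, 0.0096) and the membrane protein YIPF5 (0.43, 0.0106). With all transcript clusters in 1 fit, 0 of the 7 passed, and adjusted p-values of these 4 lay between 0.0558 and 0.0901. RAB1B, the paralog of RAB1A, chosen here after its value was seen, had a difference of 0.00050 (limma adjusted p = 0.997).

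Transcription factors known to act on secretory pathway genes, with the protease that activates several of them, were past the threshold in 4 of 8, each time as a rise. Of all genes 5.57% rose, and of those at or above the lowest coat subunit's level 12.1% did. XBP1 and CREB3L2 lay below that level, with DMSO means of 7.89 and 7.43. XBP1, a factor of the unfolded protein response, rose by 0.49 ± 0.099 (limma adjusted p = 0.0228), CREB3L2, known to act on SEC23A in cartilage of fish and mice, by 0.37 ± 0.049 (0.0042), CREB3 by 0.31 ± 0.046 (0.00685) and the protease MBTPS1 by 0.24 ± 0.056 (0.0392). ATF4 and ATF6B, chosen here after their values were seen, had differences of -0.19 (limma adjusted p = 0.0865, groups not overlapping) and -0.07 (0.528). ATF6 and CREB3L1, of the factors and family named above for GACGTG, were also not past the threshold. Their differences were 0.17 (limma adjusted p = 0.152) and 0.05 (0.546), given here after they were seen. Only transcript levels were measured. With any single array left out, 2 or 3 of the 4 passed, MBTPS1 in none of these fits, and with all clusters in 1 fit CREB3L2 alone passed (0.0366).

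SEC13 is also a subunit of the Y-complex of the nuclear pore and of GATOR2, a regulator of mTORC1 signalling, and most of its partners there were lower with the drug. Of 12 partner genes measured, 8 fell, 1 rose and 3 did not pass, with a median of -0.34, where 5.74% of all genes fell. NUP85 went from 9.99 to 9.30 (log2 group means), a change of -0.69 ± 0.066 (limma adjusted p = 0.00099). NUP160 fell by 0.47 (limma adjusted p = 0.0022), AHCTF1 by 0.37 (0.0057) and SEH1L, shared by both assemblies, by 0.40 (0.0097). All 8 that fell belong to the Y-complex. WDR59, a GATOR2 subunit that rose by 0.21 (limma adjusted p = 0.0248), and NUP133, the Y-complex gene that did not pass (0.03, 0.837), were singled out after their values were seen. SEC13, at 0.27, thus lay between SEC31A and these partners; the difference between SEC13 and the partners was not tested, since SEC13 was chosen with this comparison known. With 1 array left out, 4 to 8 of the partners fell, and with all clusters in 1 fit 3 did.

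**Figure D4:**
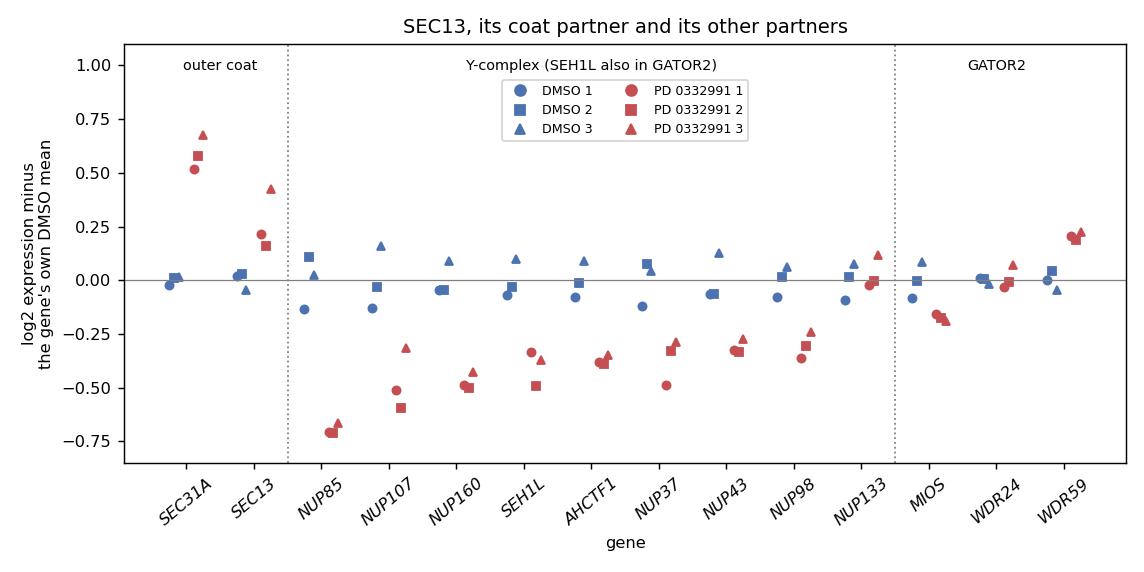
Log2 expression minus each gene's own DMSO mean (y axis) on each array for SEC31A, SEC13, 9 Y-complex genes and 3 further GATOR2 genes (x axis). Blue points are DMSO arrays, red points PD 0332991 arrays and marker shape gives the replicate number. SEC31A and SEC13 lie above 0 on all 3 drug-treated arrays, and 8 of the Y-complex genes lie below 0 on all 3.

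Among other vesicle coats, the COPI coat, which returns vesicles from the Golgi to the ER, was the closer to COPII in its values. Of 9 COPI genes measured, 6 rose and none fell, where 5.57% of all genes and 12.1% of those at or above the lowest coat subunit's level rose, with a median of 0.44 beside 0.41 for COPII. ARF1 was not analysed here. COPG1 rose by 0.78 ± 0.054, COPB2 by 0.60 and COPA by 0.57 (limma adjusted p = 0.00021, 0.00069 and 0.0012). COPB1 rose by 0.48, ARCN1 by 0.44 and COPZ1 by 0.26 (limma adjusted p = 0.0100, 0.0173 and 0.0446). Of the 6 fits without 1 array, the call of ARCN1 was lost in 3 and that of COPZ1 in 5. COPG2, the paralog of COPG1, chosen here after its value was seen, had a difference of -0.24 (limma adjusted p = 0.180). With all clusters in 1 fit 3 COPI genes rose. Clathrin and its AP1 and AP2 adaptors, the coats of the trans-Golgi and plasma membrane, had a median of 0.0041. Of 12 genes, 1 was higher (AP1G1, 0.27, limma adjusted p = 0.0352) and 1 lower (AP1M1, -0.34, limma adjusted p = 0.0086). Over all genes 5.57% were higher and 5.74% lower, so 1 of 12 each way is near that background. The call of AP1G1 was lost in 5 of the 6 fits without 1 array, with the replicate block (limma adjusted p = 0.0599) and with median centring (0.0673). With all clusters in 1 fit neither AP1G1 (0.158) nor AP1M1 (0.0593) passed. The next smallest p were those of CLTA (-0.16, limma adjusted p = 0.0848) and CLTC (0.13, 0.355). Whether the COPII subunits differ as a list from either coat was not tested.

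**Figure D5:**
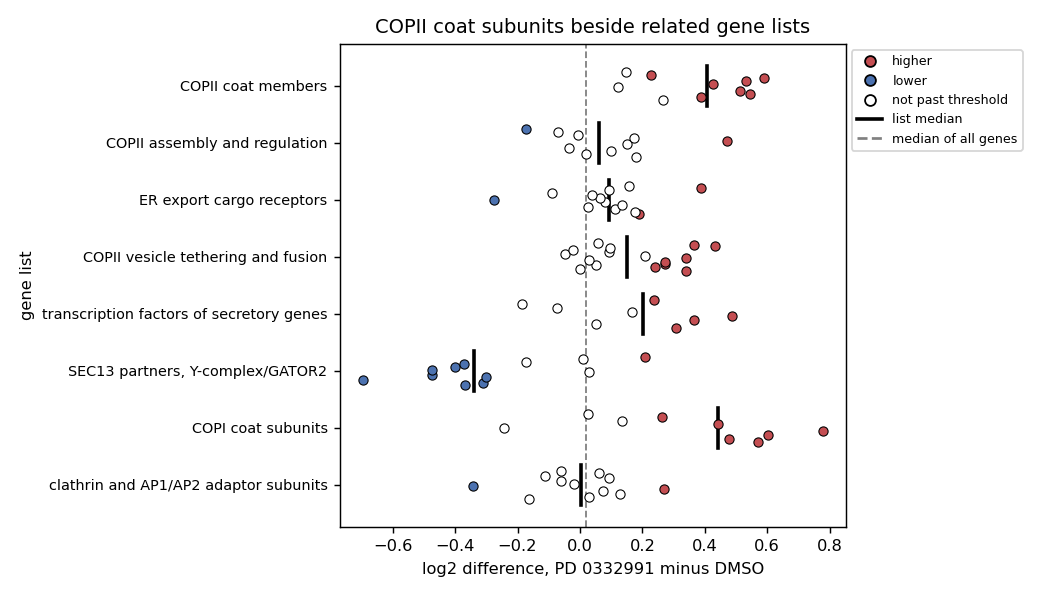
Log2 difference, PD 0332991 minus DMSO (x axis), of each gene in the COPII coat and in 7 related lists (y axis). Points are genes, red where higher and blue where lower at an adjusted p under 0.05 and white otherwise; black bars are list medians and the dashed line is the median of all genes, 0.02. The medians of the COPII and COPI coats, 0.41 and 0.44, lie to the right, that of the SEC13 partners, -0.34, to the left.

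SEC31A, the subunit with the largest difference, was used to look for genes with a like pattern over the 6 arrays. Likeness was the root mean square distance between values centred on each gene's own mean. The nearest 5 genes outside the coat were COPB2, a COPI subunit (distance 0.019 on the log2 scale), PAPSS2, which makes the sulfate donor of sulfotransferases (0.023), the tight junction gene CLDN1 (0.025), CSRNP3 (0.030) and CEMIP2 (0.034). Their differences lay between 0.56 and 0.63. The measure follows mainly the gap between the groups, which the 6 arrays share.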

How the data were processed

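Total RNA from 6 samples of PC3-ML cells was measured on Affymetrix human transcriptome arrays. The authors made the deposited values, 1 for each transcript cluster on each array, with Affymetrix Expression Console (per the submitters' processing notes), and they were read as log2 from their range of 2.04 to 19.9, since the base is not stated. Background correction and normalization are not given in the sources used here, and no further normalization was applied. Of 65535 clusters, 22685 named 1 gene, and the brightest cluster per gene gave 22375 genes; symbols were updated through Entrez identifiers for 20487 clusters. Clusters naming several or no genes were left out, and genes beyond the table's last cluster were not analysed here. Whether probes fully separate close paralogs is not known. Fold changes are 2 to the power of log2 differences.

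The comparison used limma 3.58.1 under R 4.3.3 (1 mean per group, empirical Bayes, two-sided, Benjamini-Hochberg adjustment over all genes, threshold 0.05). SEs and 95% intervals of genes use the moderated spread. Intervals of pairs use the spread of the within-array difference with 4 degrees of freedom. The COPII members and all gene lists were chosen with earlier results of these data known. Named genes were all members, all genes of the assembly list, and in every other list the 4 with the smallest p plus all past the threshold where 6 or fewer were. On simulated data with these genes, 36 of 50 genes changed by 0.5 and 7 of 50 changed by 0.25 were recovered, with 5 of 22175 unchanged genes called. In the real data far more genes were called, 1247 higher and 1284 lower. The adjustment was thus stricter in the simulation, and its recovery rates may differ from those of the real comparison. The main comparison did not take replicate numbers as pairs. Alternatives were a replicate block, median centring, quantile normalization, a level filter, averaged clusters, all clusters in 1 fit, trended robust moderation and leaving out each array.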

Additional observations from a re-analysis of the deposited data

How the results depend on the processing

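All 10 COPII subunits stayed higher with PD 0332991 under all 13 alternatives, and their number past the threshold ran from 5 (array medians centred, all transcript clusters in 1 fit, and 4 of the 6 fits without 1 array) to 10 (quantile normalization). With 1 array left out, 716 to 815 of all genes were higher and 886 to 1042 lower, and 5 to 7 COPII subunits, 1 assembly gene, 1 to 2 cargo receptors, 5 to 7 tethering genes, 2 to 3 transcription factors, 0 to 1 SEC13 partners, 4 to 6 COPI genes and 0 to 1 clathrin genes were higher; 0 assembly genes, 0 to 1 cargo receptors, 4 to 8 SEC13 partners and 1 clathrin gene were lower. Fitting all 65535 clusters together (which changes both the adjustment and the moderation) left 343 genes higher and 641 lower, among them 1 cargo receptor, 0 tethering genes, 1 transcription factor, 0 SEC13 partners, 3 COPI and 0 clathrin genes higher, and 0 assembly genes, 0 cargo receptors, 3 SEC13 partners and 0 clathrin genes lower. With the replicate block 786 genes were higher, 6 of them COPII subunits (SAR1A was lost), 1 cargo receptor, 0 SEC13 partners and 0 clathrin genes; 0 assembly genes and 0 cargo receptors were lower. Median centring left 1 cargo receptor and 0 clathrin genes higher. Quantile normalization put 4 assembly genes and 4 cargo receptors higher, and the level filter 4 and 5, with 1 transcription factor (ATF4) and 2 clathrin genes lower; trended moderation put 2 assembly genes higher. The cause of these shifts was not tested.

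Signs turned for KLHL12 (0.024 with quantile normalization, -0.039 to 0.016 with 1 array left out), TFG (0.025 with quantile normalization, -0.091 to 0.014 with 1 array left out) and SEC16A (-0.0056 to 0.049 with 1 array left out), none past the threshold. Same-numbered arrays did not deviate together, with correlations of 0.022, -0.0065 and 0.037 across genes, so the replicate numbers were not taken as pairs.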
